A study of Caenorhabditis elegans with 2 samples.

Results

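The cuticle collagen genes of Caenorhabditis elegans were examined as possible targets of the transcription factor FOS-1 in L4 larvae, the last larval stage before the adult. They were taken from the genome annotation by name. A member was any nuclear protein-coding gene whose symbol begins with col-, or one of 17 named body-shape genes (bli-1, bli-2, rol-6, sqt-1, sqt-2, sqt-3, dpy-2, dpy-3, dpy-4, dpy-5, dpy-7, dpy-8, dpy-9, dpy-10, dpy-13, dpy-14 and dpy-17). The rule gave 173 genes of 19973, of which 156 are col- genes, and no binding value was used to choose them. For each gene a promoter window was laid around every annotated 5' end, with 1000 bp before it and 200 bp after it, and the best-ranked peak summit inside was read from 4 peak lists on genome build ce11.

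Binding was measured by chromatin immunoprecipitation and sequencing (ChIP-seq) of eGFP-tagged FOS-1 from whole worms of mixed sex in 2 biological replicates of 1 group. All worms were strain OP304, with the genotype unc-119(ed3) III; wgIs304, in which wgIs304 is the inserted tagged fos-1. The age is given as unknown, and no other strain, stage or treatment was compared. The signal comes from all tissues together, so binding in few cells and weak binding in many cannot be told apart. The labels name the antibody as fos-1, both replicates carry the tagged gene, and the peak lists hold no transcript levels.

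Cuticle collagens are the main structural proteins of the worm's exoskeleton. The epidermis secretes a new cuticle before each molt, and different collagen genes are switched on at set times in each molting cycle and at set stages of life. Each collagen chain carries stretches of glycine followed by any pair of residues (Gly-X-Y) that wind into a triple helix, and chains are then cut, secreted and crosslinked outside the cell. Mutations in many of these genes change the shape of the worm, giving dumpy (dpy), roller (rol), squat (sqt) or blistered (bli) animals. FOS-1, a relative of mammalian Fos, is a basic leucine zipper protein known for its role in the anchor cell, which invades the epidermis below it during vulval development.

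Nearly all members had the repeats of a collagen, a count that does not show whether a member is a collagen of the cuticle. At least 30 Gly-X-Y triplets, in runs of 3 or more, were read from the annotated frames of 171 of the 173, with a median of 51 triplets in a protein of 304 residues. The exceptions were col-55, with 20 triplets, and col-17, with 0 in its annotated frame. The genes lie on every nuclear chromosome, with 44 on IV, 32 on V, 31 on II, 30 on X, 23 on I and 13 on III. They are short, with a median length of 1221 bp against 2027 bp for all protein-coding genes. Few share their 5' region, since 31 members (17.9%) had the 5' end of another gene within 1000 bp, against 25.3% of all genes.

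Only 1 collagen gene, col-63, had a peak of the set that passed the irreproducible discovery rate (IDR, the authors' filter on how well replicates rank the same regions). That is 0.578% of the 173 (exact 95% interval 0.0146 to 3.18) against 0.806% of all genes. In the pooled list of 3527 regions, which adds weaker regions and background, 9 collagen genes had a promoter summit, or 5.2% (2.41 to 9.65) against 7.67% of all genes. Cut to the same number of regions, the replicate 1 list alone gave 9 members, 5.2% against 7.02% of all genes, and the replicate 2 list alone gave 9, 5.2% against 6.74%. The shares of all genes lie inside the members' intervals in each of these lists, and no test was made. Intervals are exact Clopper-Pearson ones that cover counting error over genes only, not the spread between replicates, and neighbouring genes can share a peak.

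Over the full replicate lists, which run deep into background, the share of collagen genes was lower than that of all genes. A summit was found for 57 members in replicate 1, 32.9% (26.0 to 40.5) against 39.6% of all genes, and for 55 in replicate 2, 31.8% (24.9 to 39.3) against 39.7%. Both lists had a summit for 23 members, 13.3% (8.62 to 19.3) against 20.9%, and 10 members, 5.78% (2.81 to 10.4) against 12.4%, had a pair of replicate summits within 200 bp of each other. A summit in a single replicate list was found for 66 members, 38.2% against 37.4%, and 84 members, 48.6% (40.9 to 56.3) against 41.7%, had none in either. The background lay above the members' interval for replicate 2, for both lists and for matched pairs, and inside it for replicate 1. These are descriptions with no test. The lower share of members with a neighbouring 5' end is given above beside them because a window with 2 genes can count for both. Members also had fewer windows per gene, with 200 5' ends for 173 members against 29314 for all 19973 genes. With the 5' end of the gene record only, 10 members had a matched pair, 5.78% against 10.7% of all genes. The part of neighbouring 5' ends and of window number in the difference was not tested.

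**Figure D1:**
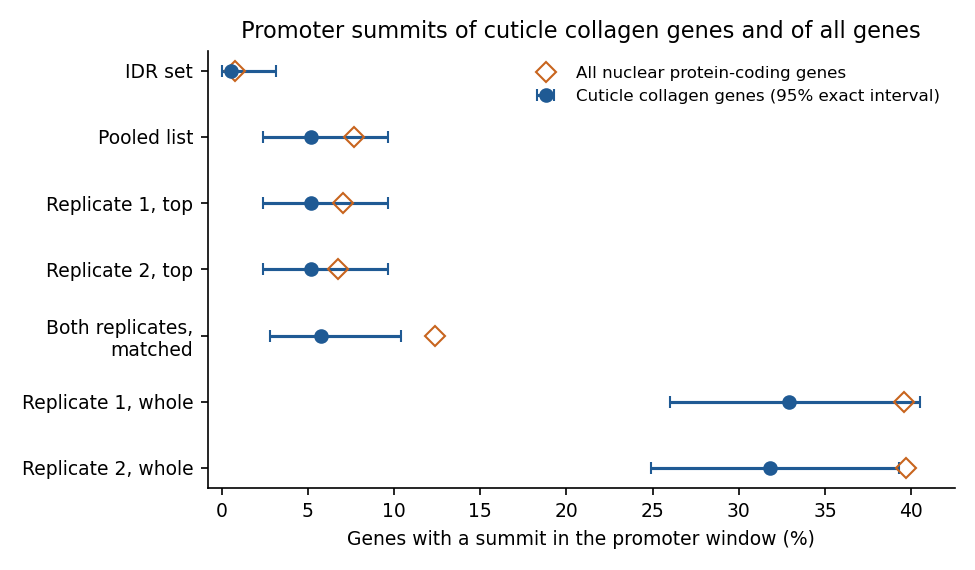
Percent of genes with a summit in the promoter window (x axis) in each peak list (y axis). Filled circles with bars are the 173 cuticle collagen genes with exact 95% intervals, and open diamonds are all 19973 nuclear protein-coding genes; the diamond lies outside the bar for pairs matched in both replicates (12.4% against 5.78%) and for the whole replicate 2 list (39.7% against 31.8%).

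The peak at col-63 was the strongest collagen signal in the pooled data. col-63, a cuticle collagen gene at chrI:8243694-8244963 on the minus strand, had its IDR peak at chrI:8245393-8245736. Its signal, the authors' peak caller's own value with a scale not stated, was 31.4 in the pooled list, rank 239 of the 248 IDR peaks, with a q-value of 0.0314. The replicate 1 list had a region of signal 14.4 there, rank 698 of 30000, and the replicate 2 list one of signal 15.1, rank 673 of 29345. The summits of the replicates were 26 bp apart, at 573 and 599 bp upstream of the 5' end. The pooled summit, 602 bp upstream, fell in the annotated 3' UTR of ceh-8, a homeobox gene that ends upstream of col-63 on the same strand, and its region overlaps the noncoding RNA gene ZK265.11. No other protein-coding gene had this summit in its promoter window. A further pooled region of rank 1002 lay 2217 bp upstream of col-63, inside ceh-8 and outside the window, with replicate ranks of 371 and 26321 close by.

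Next in the pooled list came a body-shape collagen and a furrow collagen. The gene rol-6, known for the dominant roller allele used as a transformation marker, lies at chrII:8733050-8734239 on the plus strand. Its pooled region, chrII:8732402-8732745, overlaps the noncoding RNA gene T01B7.11. The region had a signal of 21.1 and rank 1214, with a q-value of 0.540. Replicate 1 gave it a signal of 10.4 (rank 3092) and replicate 2 one of 6.72 (rank 16485), with summits 74 bp apart. Replicate 2 also had a stronger region of rank 1453 at the far end of rol-6, 1169 bp downstream of the 5' end. The gene dpy-3, at chrX:2144605-2145647 on the minus strand, encodes one of the collagens of the annular furrows, the circular grooves of the cuticle. Its pooled region, chrX:2145783-2146126, had a signal of 20.5, rank 1354 and a q-value of 0.615. In dpy-3 the replicates were more alike in rank, with signals of 13.3 (rank 1002) and 11.8 (rank 2309), but their summits lay 224 and 523 bp upstream, too far apart to match within 200 bp.

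The other pooled summits of collagen genes were weaker, at ranks 2023 to 3511 of 3527. The gene dpy-2, another furrow collagen, had a summit 794 bp upstream in the pooled list (signal 17.4, rank 2826) and at the same base in replicate 1 (signal 10.7, rank 2732), and none in its window in replicate 2. That summit lies between dpy-2 and dpy-10, also a furrow collagen gene, which is transcribed in the opposite direction. It was 1271 bp from the 5' end of dpy-10, outside its window, and 567 bp upstream of T14B4.19, whose 5' end was nearest. The pooled region there overlaps the noncoding RNA gene T14B4.15. At dpy-10 itself, replicate 2 had a summit 72 bp inside the gene (rank 22374) and replicate 1 one 30 bp upstream of it (rank 9969), 102 bp apart. The remaining members, all col- genes without an assigned role here, were col-129 (signal 18.7, rank 2023), col-128 (17.7, rank 2592), col-93 (17.3, rank 2920), col-47 (16.8, rank 3344) and col-20 (16.6, rank 3511). Pooled q-values were 0.540 to 0.956 for these 8 genes other than col-63, so each lies among regions that the peak caller's own q-value does not separate from background.

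**Figure D2:**
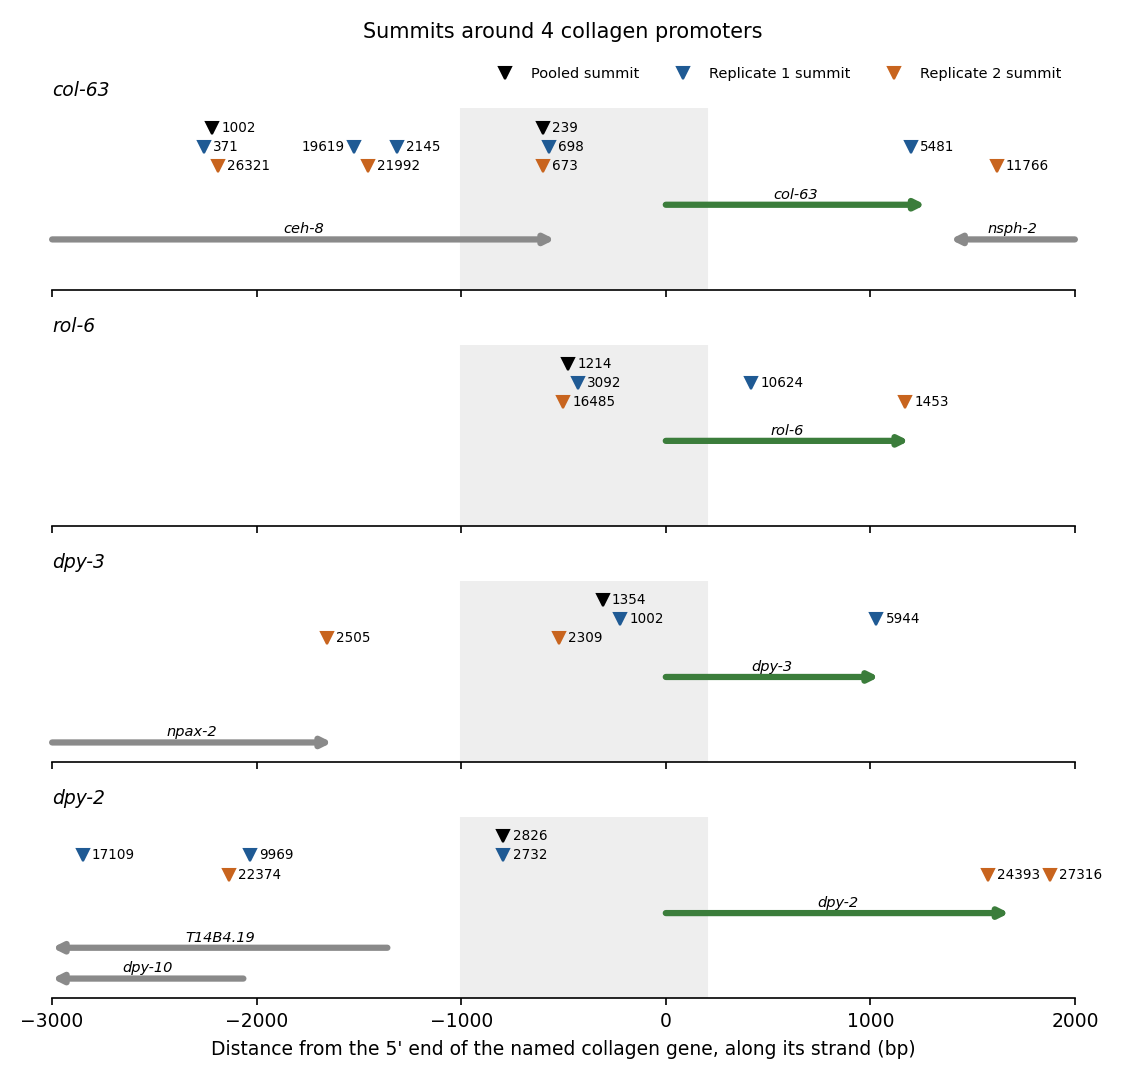
Summits around 4 collagen genes, as distance from the 5' end of the named gene along its strand (x axis, bp). Triangles are summits of the pooled list (black), replicate 1 (blue) and replicate 2 (orange) with their rank, arrows are protein-coding genes, and the shaded band is the promoter window; in the window of col-63 all 3 lists have a summit at 573 to 602 bp upstream, while dpy-2 has none from replicate 2.

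The sequence under these weaker summits is shown because FOS and JUN proteins bind the AP-1 site, TGACTCA or TGAGTCA, and the question is whether its letters are there. Each runs 50 bases to each side of a summit of the pooled list (for bli-1, of replicate 1), on the strand of the collagen gene, from the RefSeq genome WBcel235, which is ce11. None overlaps an annotated UTR. Capitals mark any of 4 motifs searched on both strands, which were AP-1, the related CRE site TGACGTCA, the GATA letters TGATAA and the nuclear receptor element AGGTCA. None of the 4 contains another. Their places are chrII:8732524-8732624 for rol-6, chrX:2145905-2146005 for dpy-3, chrII:6713448-6713548 for dpy-2, chrIV:11552067-11552167 for col-128, chrIII:10986409-10986509 for col-93 and chrII:10708526-10708626 for bli-1.
rol-6: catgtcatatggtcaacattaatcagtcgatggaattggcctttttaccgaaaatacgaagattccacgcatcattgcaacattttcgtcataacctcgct
dpy-3: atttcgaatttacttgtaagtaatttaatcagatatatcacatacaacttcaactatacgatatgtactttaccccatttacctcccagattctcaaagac
dpy-2: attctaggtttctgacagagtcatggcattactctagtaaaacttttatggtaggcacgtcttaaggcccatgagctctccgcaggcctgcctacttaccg
col-128: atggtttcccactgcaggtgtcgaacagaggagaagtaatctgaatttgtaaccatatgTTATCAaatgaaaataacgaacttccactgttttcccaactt
col-93: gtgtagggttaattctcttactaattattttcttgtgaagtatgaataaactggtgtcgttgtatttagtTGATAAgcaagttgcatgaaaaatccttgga
bli-1: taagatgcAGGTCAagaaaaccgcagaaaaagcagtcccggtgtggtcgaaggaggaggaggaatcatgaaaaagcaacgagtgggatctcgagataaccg

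No AP-1 or CRE letters stood in any of the 6 sequences. The searched GATA letters, 1 form of the site of epidermal factors such as ELT-1 and ELT-3, stood in those of col-128 and col-93. A nuclear receptor element stood in that of bli-1. The form AGATAA was not searched and is not in the GATA counts below, and it stands unmarked near the end of the bli-1 sequence. Within 100 bp to each side of the summit, 0 of the 9 pooled collagen summits held AP-1 letters, against 59 of 1309 promoter summits of the pooled list (4.51%). The same count was 0 of 56 in replicate 1, against 2.6% of promoter summits, and 0 of 55 in replicate 2, against 2.64%. GATA letters stood beside 2 of the 9 pooled summits, against 24.8% of promoter summits. Nuclear receptor elements stood beside 1 of 9, against 5.42%, beside 7 of 56 in replicate 1 (12.5% against 5.05%) and beside 7 of 55 in replicate 2 (12.7% against 4.53%). These are letters in windows only, and nothing about a factor follows from a match or its lack.

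In the whole promoter windows, AP-1 letters were found for 9 collagen genes, 5.2%, against 11.7% of all genes, measured from the 5' end of the gene record. The 9 genes, col-2, col-55, col-97, col-101, col-107, col-135, col-137, col-155 and col-166, hold 1 match each, and none of the 9 matches lay within 100 bp of a summit of the pooled, replicate 1 or replicate 2 list. The nearest pooled summit to any of them was 1587 bp away, at col-97. CRE letters were as frequent in collagen windows (5.78%) as in all windows (5.89%). GATA letters were in 78.6% of collagen windows and 72.0% of all windows. AGGTCA, the element that nuclear receptors such as NHR-23 of the molting cycle recognise, was in 38.7% of collagen windows and 26.7% of all windows. The median GC content was 35.6% in collagen windows and 35.0% in all windows.

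By role, the groups are small, and their counts stand beside 7.67% of all genes with a pooled summit, 39.6% with one in replicate 1 and 39.7% with one in replicate 2. Furrow collagens had 2 of 6 members in the pooled list, dpy-3 and dpy-2. Of their other members, dpy-10 had the weak replicate regions described above, and dpy-7, dpy-8 and dpy-9 had no summit in their windows in any list. The strut collagens bli-1 and bli-2, which build the columns of the adult cuticle, had none in the pooled list. For bli-1, replicate 1 held the best-ranked collagen summit of either replicate list, with a signal of 15.4 and rank 510, at 384 bp upstream in an intron of dph-2, yet replicate 2 had none in its window. For bli-2 neither replicate list had a summit. Thus the highest collagen rank of replicate 1 came from a region that neither the pooled nor the replicate 2 list holds in that window.

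Among the 9 other body-shape collagens, rol-6 alone was in the pooled list. The whole replicate 2 list had a summit for 6 of the 9 (66.7%, against 39.7% of all genes) and the whole replicate 1 list for 1, rol-6 (11.1%, against 39.6%), so the replicates lay on opposite sides of the share of all genes. In replicate 2 these were dpy-5 (signal 11.8, rank 2266, 249 bp upstream), sqt-2 (rank 14425), dpy-13 (rank 15849), rol-6 (rank 16485), sqt-3 (rank 16885) and dpy-4 (rank 25960). The genes dpy-14, dpy-17 and sqt-1 had none. An IDR peak of rank 148 (signal 36.2) lay past the 3' end of dpy-5, 1735 bp downstream of its 5' end, in the 3' UTR of the neighbouring gene F27C1.2.

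The L4 and adult group of 8 genes held col-63 and 7 genes without a pooled promoter summit. In that group col-138 had replicate summits 159 bp apart (ranks 11606 and 18441), col-7 had summits of rank 29329 and 26552 that did not match, and col-38 and col-71 had a summit in replicate 1 only (ranks 23377 and 12716). For col-49, col-62 and col-19 the windows were empty in all lists. The gene col-19, a marker of the adult epidermis, had a pooled summit 380 bp downstream of its 5' end, in its own coding exon and inside the overlapping gene ZK1193.2 (signal 23.2, rank 777, q-value 0.348), outside the window. Of the dauer collagens, col-2 had a replicate 2 summit of rank 2881 and col-40 had none. The other 146 col- genes had 5 members in the pooled list, 3.42% against 7.67% of all genes, and 6 matched between replicates, 4.11% against 12.4%. By chromosome, 0 of the 32 members on V had a pooled summit, where 5.55% of all genes on V had one, and the other chromosomes had 3.33% to 9.68% of members against 6.32% to 9.73% of all genes. In replicate 1 the share on V was 15.6% of members against 33.9% of all genes, and elsewhere 35.5% to 39.1% against 39.3% to 45.3%. In replicate 2 it was 34.4% against 35.3% on V, and elsewhere 25.8% to 38.5% against 37.3% to 44.4%.

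**Figure D3:**
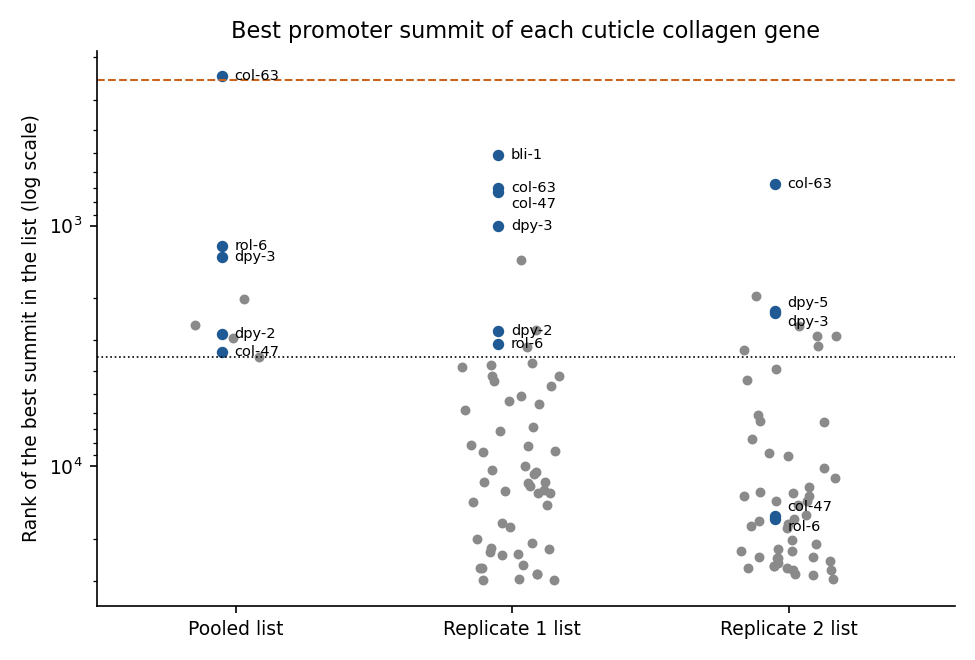
Rank of the best promoter summit of each collagen gene (y axis, log scale, best at the top) in the pooled list and each replicate list, with 1 point per gene and 7 genes named in blue. The dashed line is rank 248, the size of the IDR set, and the dotted line rank 3527, the length of the pooled list; only col-63 lies above the dashed line, and in the pooled list alone.

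Few collagen genes ranked high in both replicates, as was so for genes in general. In the top 3527 regions of either replicate list there were 16 collagen genes, and 2 of them, col-63 and dpy-3, were in both (12.5%). Of the 2370 genes of any kind in either, 379 (16%) were in both. Among the best 10 by mean rank over the replicates were, in order, col-63, dpy-3, col-93, col-129, col-47, rol-6, col-175, col-101, col-179 and col-53. Of these col-47 ranked 723 in replicate 1 and 16008 in replicate 2, and col-101 ranked 19970 and 3173. Each rank is that of the best summit in the window, which need not be at the same place in both lists. For col-47 the 2 summits lay 95 and 640 bp upstream. The best ranks of the 23 members present in both lists had a Spearman correlation of -0.10, and those of the 4184 genes of any kind present in both had one of 0.23. The points share the libraries, the control and in places a peak, and the correlations are descriptions only.

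The 10 members with matched replicate summits were col-63, rol-6, col-93, col-20, col-128, dpy-10, col-8, col-53, col-138 and col-179. Of these, 5 were also in the pooled list, which is 55.6% of the 9 pooled members; of all 1531 genes with a pooled promoter summit, 75.6% had a matched pair. The pair at col-93 was the closest, 12 bp apart, with ranks of 4653 and 14016. That of col-8 paired ranks 29771 and 6559, and that of col-20 paired 25771 and 2622. Apart from col-63, each matched pair had at least 1 summit outside the top 3527 of its list. Among members with a summit, the median best rank was 10585 in replicate 1 and 15849 in replicate 2, against 12183.5 and 12105.5 for all genes with a summit.

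**Figure D4:**
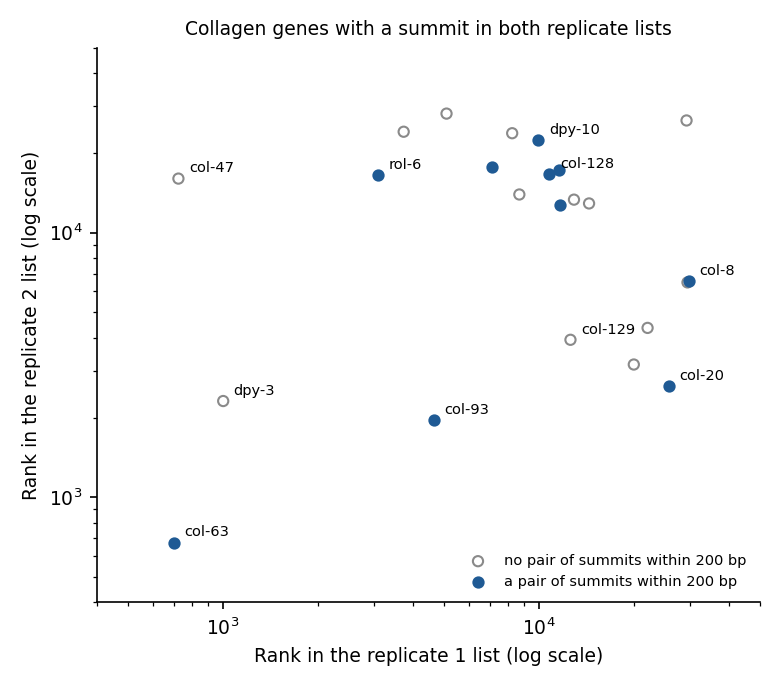
Rank of the best promoter summit in replicate 1 (x axis, log scale) against replicate 2 (y axis, log scale) for the 23 collagen genes with a summit in both lists, with lower ranks being stronger. Filled points have a pair of summits within 200 bp and open points have none; col-63, at ranks 698 and 673, has the best pair of ranks and dpy-3, at 1002 and 2309, the next.

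The distance of collagen summits from the 5' end differed between the lists. In the pooled list the median position was 590 bp upstream for the 9 members and 303 bp upstream for all 1531 genes with a summit, and none of the 9 best summits was downstream of the 5' end it was assigned to. The summit of col-129, 590 bp upstream of its shorter transcript, is also 238 bp downstream of the start of its longer one, in a coding exon. In replicate 1 the median was 241 bp upstream, against 327 bp for all genes, and 14 of 57 best summits (24.6%, against 16.8%) lay from the 5' end to 200 bp downstream, and in replicate 2 it was 433 bp, against 342 bp. Members were thus nearer than all genes in replicate 1 and farther in replicate 2 and the pooled list. By annotation, 5 of the 9 pooled summits were intergenic, 2 in coding exons, 1 in an intron and 1 in a 3' UTR. Members were the gene with the nearest 5' end for 8 of the 9, the exception being dpy-2.

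**Figure D5:**
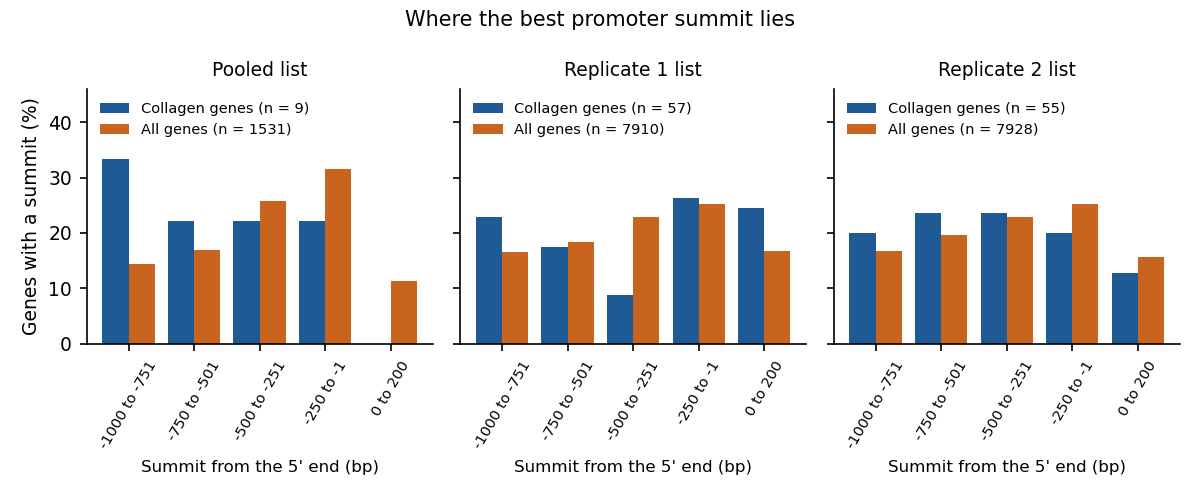
Percent of genes with a summit (y axis) whose best summit falls in each distance bin from the 5' end (x axis, bp, negative values upstream), for collagen genes (blue) and all protein-coding genes (orange) in the pooled, replicate 1 and replicate 2 lists. The collagen bars of the pooled list stand for 9 genes, of which 3 lie beyond 750 bp upstream and 0 from the 5' end to 200 bp downstream.

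Neighbouring collagen genes rarely shared a summit. In the pooled list no summit was in the windows of 2 members, and in replicate 1 the only such pair was col-159 and col-160. These genes overlap on the same strand, and the summit lay 196 and 184 bp upstream of their 5' ends. The pooled summit of col-47, 85 bp upstream of one of its 5' ends, lies where col-47 and col-46 overlap on opposite strands, 425 bp downstream of the 5' end of col-46. The share of 31-base words that occur once in the genome was counted in the window at the 5' end of the gene record only. It was 67.6% for col-46 and 89.8% for col-47. Neither of these windows holds the pooled summit of col-47, so the shares do not describe the sequence under it. Why some words occur more than once was not tested. Over the other 8 members with a pooled summit the share was 91.3% (col-128) to 100%, though the window counted for col-129 does not hold its summit either. How reads with several matches were treated is not given in the sources used here, and its effect on these counts was not tested.

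Just outside the window, 24 members had their nearest pooled summit within 2000 bp, 21 of them downstream of the 5' end and 8 of them in their own gene. The window takes up 1000 bp upstream but only 200 bp downstream, so more of the 2000 bp left to search lies downstream. No such count was made for all genes, and a preference of collagen genes for either side was not tested. The nearest inside the edge were col-20 at 871 bp and col-93 at 850 bp upstream, and the nearest outside it were col-174 at 1134 bp (rank 1566) and dpy-10 at 1271 bp upstream. On the downstream side the nearest were col-19 at 380 bp, col-46 at 425 bp and col-140 at 529 bp. A pooled summit anywhere inside the gene was found for 10 members, 5.78%, against 7.56% of the longer genes in general. They were col-19, col-46, col-47, col-90, col-106, col-122, col-129, col-140, dpy-9 and sqt-3, and none had an IDR peak inside. The strongest of them were col-19 (rank 777) and col-106, whose summit of rank 805 lay 841 bp downstream in its coding exon.

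IDR peaks in the wider surroundings belonged to other genes by position. An IDR summit lay within 10000 bp of 5 members, 2.89%, against 5.02% of all genes. Besides col-63 and dpy-5 these were dpy-14, col-38 and col-89. The peak near dpy-14 was 127 bp upstream of dpf-3, that near col-38 was 78 bp upstream of iff-2, and that near col-89 was 108 bp upstream of fbxl-2. The median distance from a 5' end to the nearest IDR summit was 130471 bp for members and 151309 bp for all genes, and to the nearest pooled summit 8922 bp and 11506 bp.

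Genes that process collagens or time their expression were counted from lists in the same way, and none had an IDR peak in the promoter window. Their pooled counts stand beside 7.67% of all genes, and lists this short cannot show a small difference from it. Of 11 genes for collagen synthesis and processing, 2 had a pooled summit. These were dpy-11 (rank 2260, q-value 0.857), for a thioredoxin-like protein of the epidermal endoplasmic reticulum, and pdi-2 (rank 3020, q-value 0.917). The gene pdi-2 encodes the protein disulfide isomerase that is a subunit of prolyl 4-hydroxylase. Of 10 molting proteins, nekl-3 (rank 1656, q-value 0.721), for a NIMA-family kinase, was the only one. None was found for the 5 crosslinking genes, such as bli-3 for a dual oxidase, nor for the 11 genes of cuticlins and the apical matrix.

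The transcription factors of epidermis, molting and timing had the most, 4 of 12. The highest was blmp-1, for a zinc finger factor related to mammalian PRDM1, with a pooled signal of 25.1, rank 577 and a q-value of 0.207. Replicate 1 placed it at rank 251, 195 bp upstream, and replicate 2 had no summit in its windows. The next was nhr-85, for a nuclear receptor, at rank 663 (q-value 0.26). Its replicate 1 summit (rank 300) lay 818 bp upstream of a 5' end inside the gene, near the pooled one. Its best replicate 2 summit (rank 7907) lay 159 bp downstream of another 5' end, and a weaker one within 200 bp of the replicate 1 summit. Then came mab-10, for a transcriptional cofactor of LIN-29, at rank 1807 (q-value 0.741). Last was elt-3, for an epidermal GATA factor, at rank 2369 (q-value 0.865) and rank 267 in replicate 2. The replicate 1 summit of elt-3, of rank 7678, lay at another 5' end. The pooled summits of nhr-85, mab-10 and elt-3 lay inside the gene record, each upstream of a 5' end within it. That of blmp-1 lay upstream of the whole gene. The number of windows of these genes was not compared with that of all genes. Among the top 3527 regions of the replicate lists, 3 of the 12 were found in replicate 1, 25% against 7.02% of all genes. In replicate 2 the count was 1, 8.33% against 6.74%. Of 12 such genes the count 4 is 33.3%, beside 7.67% of all genes, in lists chosen with results of these data known and with no test. For the factors most often tied to collagen timing, nhr-23 had no pooled summit and best replicate ranks of 11237 and 11656. For lin-29 there was none either, and the best ranks were 21752 and 15475. At both genes these best summits lay at different places in the 2 replicates, though each gene also had a pair within 200 bp.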

How the data were processed

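ChIP-seq peak lists of 2 replicates of 1 group were used on build ce11. The authors called peaks and background on each replicate alignment, and on both together for the pooled list, each with the same control alignment, and derived the IDR set from these lists, per the file lists deposited with each sample. The aligner, the peak caller and the threshold of the IDR were not given in the sources used here. The deposited signal of a region is the peak caller's own value, and it was used only to rank regions within a list. The −log10 q-values are also deposited values, from which q-values were computed. Read counts were not used here, so depth is unknown.

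Genes and 5' ends of protein-coding transcripts came from Ensembl annotation release 115 (WBcel235, the same coordinates as ce11), and mitochondrial genes and the ce10 lists were left out. Summits were placed in windows of 1000 bp upstream to 200 bp downstream, and a summit counted for every gene whose window held it. Replicate summits within 200 bp were matched. No test was made: there is 1 group, and shares carry exact Clopper-Pearson 95% intervals. The members, role groups and lists were chosen with earlier results of these data known. Genes were named by rule: members in the IDR set or among the best 25 of the pooled list, the best 10 by mean replicate rank, all bli, dpy, rol and sqt genes and col-19, and up to 4 per other list. Others were named after their values were seen. The word count of windows (31 bases, both strands, at the 5' end of the gene record only) was also added then. The window search was tested on simulated data. Python 3.11.15, numpy 2.4.6, pandas 2.3.3, scipy 1.17.1 and matplotlib 3.10.9 were used.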

Additional observations from a re-analysis of the deposited data

Results flagged for a closer look

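The replicate 2 list holds 18 regions on mitochondrial DNA, where no collagen gene lies. A count of 0, as in replicate 1, leaves room for up to 3. The 18 regions rank from 1 to 201 in replicate 2, so every collagen gene of that list would rank 18 places higher without them. The count of members among the top 3527 regions stayed at 9 with nuclear regions only.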

How the results depend on the processing

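Of 26 recomputed counts and ranks, 13 stayed within 1.5-fold of the reported value and 13 moved further. For the moves below the cause was not tested, other than where list length sets it. With the narrow window, 500 bp upstream to 100 bp downstream, members with an IDR summit fell to 0 (0.576% of all genes), those with a pooled summit to 4 (2.31%, against 5.02%) and matched pairs to 3 (1.73%, against 7.49%), and the best pooled rank became 1214 (rol-6). With the wide window, 2000 bp upstream to 500 bp downstream, 16 members had a pooled summit (9.25%, against 11.6%) and 22 a matched pair (12.7%, against 19.7%). The 124 IDR peaks of highest signal held 0 members (0.376% of all genes), and the upper 50% of the pooled list held 3 (1.73%, against 4.42%). Matching within 100 bp left 5 pairs (2.89%, against 8.73%). Top regions cut to the size of the IDR set held 0 members in each replicate list (0.656% and 0.646% of all genes), and the whole lists held 57 and 55, which follows from their length. The share of members with a pooled summit was below that of all genes under each alternative run, the wide window and each replicate alone included. Using the 5' end of the gene record gave 7 members (4.05%, against 6.7% of all genes). Any base of the region gave 10 (5.78%, against 8.65%) and the nearest 5' end only 8 (4.62%, against 6.4%). Without replicate 1 or without replicate 2, 9 members had a summit among as many regions (5.2%, against 6.74% and 7.02% of all genes). Depth is unknown.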

Other observations

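The annotated reading frame of col-17 held 0 Gly-X-Y triplets, while the third frame of the same coding sequence held 51, the median of the collagen genes. col-135, with 198 triplets in 660 residues, and col-99, with 132 in 735, were the members with the most repeats, and bli-1 was the longest, with 948 residues and 51 triplets. None of col-17, col-99 and col-135 had a pooled promoter summit. At the 5' end of the gene record, the windows of col-3 and col-117 held the fewest words found once in the genome, 46.6% each. Of the 173 member windows, 19 (11%) were under 90%, against 14.6% of all windows.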
